A study of Danio rerio with 6 samples.

Results

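The 9 genes described here lie on the chromosome that carries samd7, and they were selected on their measured values: in each of them the 3 samd7-/- larvae all stood on one side of the 3 WT larvae. They are ppm1la, zgc:153615, pcyt1aa, tfa, pik3r2, ifi30, si:dkeyp-73d8.9, klhl18 and gpsm2, named here in their order along the chromosome, and none is known mainly as a photoreceptor gene. They are 9 of 14781 genes in the table, of which 705 were placed on the samd7 chromosome and 584 of these were tested. RNA came from the eyes of 6 zebrafish larvae aged 5 days post fertilization, 3 homozygous for the stl888 allele of samd7 (samd7-/-) and 3 WT, all offspring of crosses between heterozygotes. The eyes of 1 larva made 1 library, so animal, dissection and library preparation all enter the spread within a genotype. The genotype separation itself chose the 9 genes, so their genotype differences are given as a description, with no test.

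samd7 is a photoreceptor gene whose product, a Polycomb group protein, carries a SAM domain. Larvae of such a cross were sorted by their genotype at samd7, and DNA that lies near a locus tends to be inherited with it, less so the farther away it lies. A samd7-/- larva therefore carries the mutation on both copies and tends to carry any sequence differences linked to it. A WT larva tends to carry the other version. Far from samd7 a larva need not carry the same version on both copies. Only the genotype at samd7 is known, so whether alleles differ between the groups at other genes was not tested. Whether a gene of this chromosome differs because samd7 is mutated or because its own linked alleles differ cannot be told apart in this design. In whole eyes, fewer cells of a type and less RNA per cell cannot be told apart either.

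The libraries held 23185755 to 23550042 reads assigned to genes in samd7-/- and 23387568 to 26672265 in WT. Levels are normalized read counts. Each log2 fold change sets samd7-/- over WT, was taken on log2(value + 1) and comes with its standard error (SE) from a limma fit to the 11959 genes that reached 10 or more in 3 or more libraries. At an adjusted p under 0.05 this fit called 36 genes, 0.301% of those tested. The samd7 transcript stood at 4691, 4070 and 4479 in samd7-/- and at 1813, 1587 and 1931 in WT; the labels do not say how the allele bears on the transcript level, so this is no check of the genotypes. Across all genes WT 1 stood apart from the other WT larvae on the first principal component, at 48.2 against 8.96 and 12.1, with the samd7-/- larvae between −34.2 and −11.6. Markers of rods were lower in the mutant eyes and those of ultraviolet (UV) and blue cones higher: the summed rod markers ranged from 43783 to 101318 in samd7-/- and from 317942 to 428573 in WT, and 8 of 11 fell with limma. The summed UV and blue cone markers ranged from 2257654 to 2493919 in samd7-/- and from 1093418 to 1674516 in WT, and 2 of 7 rose. Red and green cone markers ranged from 221573 to 229053 in samd7-/- and from 556647 to 913770 in WT, and 3 of 6 tested fell. The part of these shifts in the levels of the 9 genes was not tested.

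Those of the 9 genes with a known role act in several parts of the cell. ppm1la and pik3r2 belong to signalling by phosphate groups, pcyt1aa to the making of membrane lipid, tfa to iron transport, klhl18 to protein turnover, gpsm2 to cell division and polarity, and ifi30 to the lysosome. The other members, zgc:153615 and si:dkeyp-73d8.9, carry clone names, and the sources used here give them no function beyond being protein-coding. Of the 9, 2 were higher in samd7-/- and 7 lower, with log2 fold changes from −4.59 to 1.97 and a median of −1.26. The −4.59 is set by the pseudocount, as si:dkeyp-73d8.9 had no reads in samd7-/-, and the next lowest was −2.28 for pik3r2. All 9 are non-overlapping by the way they were chosen, where 13.1% of all tested genes were, 6.66% higher and 6.39% lower in samd7-/-.

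**Figure D1:**
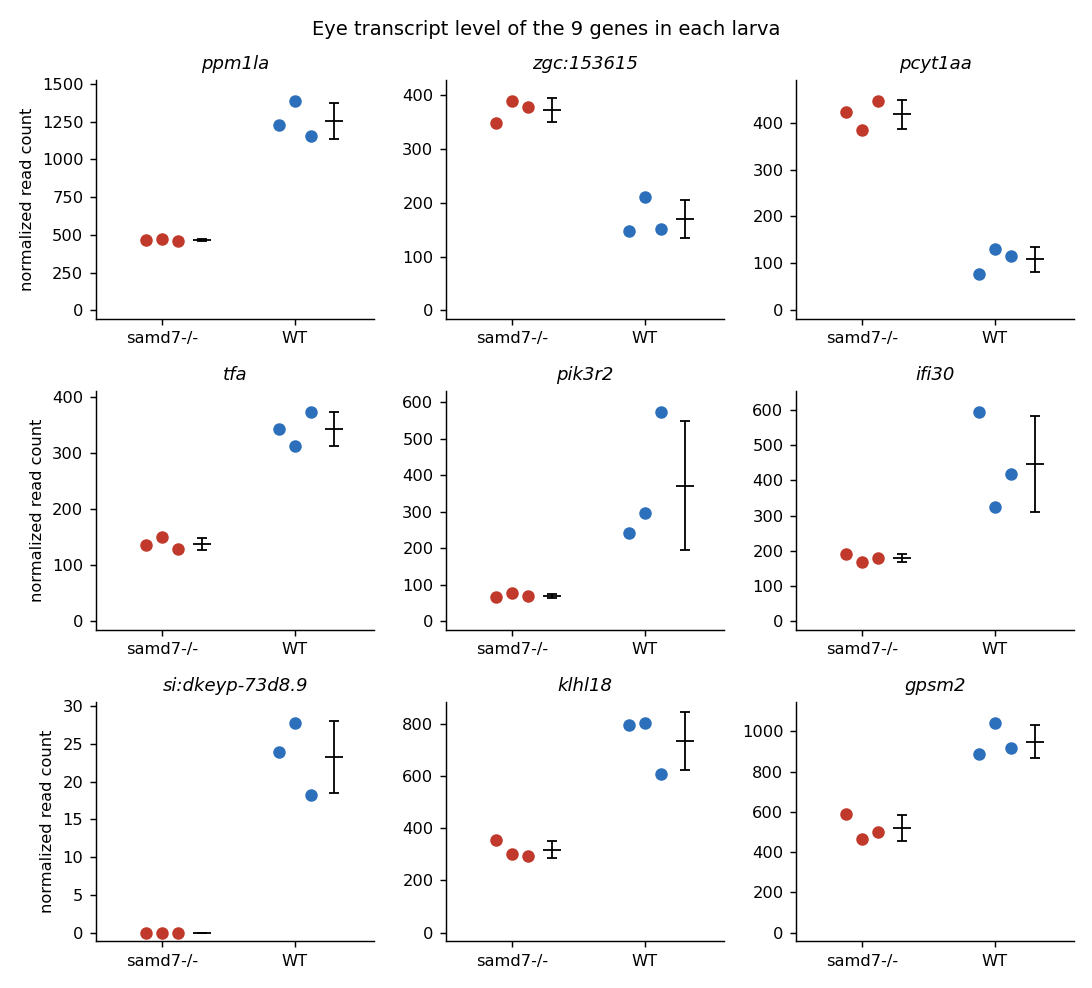
Normalized read counts of the 9 genes (y axis, each from its own zero) in the 3 samd7-/- larvae (red) and the 3 WT larvae (blue); each point is 1 larva, and the bar beside each group is the mean ± SD. In every panel the groups are separated: pcyt1aa and zgc:153615 are higher in samd7-/-, the other 7 are lower, and si:dkeyp-73d8.9 is at 0 in all samd7-/- larvae.

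ppm1la and pik3r2 were among the 7 of the 9 genes that were lower in samd7-/-. ppm1la encodes a relative of mammalian PPM1L, a metal-dependent protein phosphatase of the PP2C family that takes phosphate off kinases of stress signalling. Its levels were 466, 469 and 458 in samd7-/- and 1226, 1389 and 1157 in WT, a log2 fold change of −1.43 (SE 0.12). The samd7-/- larvae were closely grouped, with a mean of 464 and a coefficient of variation of 1.28%, and WT was 2.71 times as high, with a mean of 1257 and a coefficient of variation of 9.47% (n = 3 each). pik3r2 encodes p85 beta, a regulatory subunit that holds and steers the catalytic subunit of class I phosphoinositide 3-kinase. It stood at 65.9, 76.8 and 69.4 in samd7-/- and at 243, 298 and 574 in WT, a log2 fold change of −2.28 (SE 0.31). The WT larvae differed among themselves, WT 3 lying far above the others. That the lowest WT value was above every samd7-/- value follows from the way the gene was chosen.

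pcyt1aa was the member that stood furthest above WT. It encodes the alpha form of the enzyme that joins phosphocholine to CTP, the rate-limiting step in making phosphatidylcholine, and changes in the human gene PCYT1A are known from patients with a cone-rod dystrophy. Its levels were 422, 384 and 447 in samd7-/- and 78.4, 131 and 116 in WT. The samd7-/- mean was 3.85 times the WT mean, with a log2 fold change of 1.97 (SE 0.22). The second member that was higher, zgc:153615, lay nearby, with 2 tested genes between them. It stood at 348, 390 and 379 in samd7-/- and at 148, 210 and 151 in WT, a log2 fold change of 1.15 (SE 0.19). WT 2 was the highest WT larva for both genes. That no WT larva reached the lowest samd7-/- value follows from the way both genes were chosen.

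tfa encodes transferrin-a, the protein that carries iron in blood plasma, and it was lower in samd7-/-. It stood at 136, 150 and 129 in samd7-/- and at 342, 312 and 373 in WT, a log2 fold change of −1.30 (SE 0.17). Both groups were tight, and WT was 2.48 times as high. The summed markers of liver and plasma proteins ranged from 4273 to 5497 in samd7-/- and from 3802 to 8299 in WT, ranges that overlap, and 0 of 7 tested genes of that list passed with limma. Without adjustment 0 of them had a p under 0.05. Over all tested genes these shares were 0.301% and 6.33%, so 0 of 7 is no result about the list. The part of blood or liver RNA in the tfa values was not tested.

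klhl18 encodes a BTB and Kelch repeat protein that brings targets to the CUL3 ubiquitin ligase, and in the mouse retina it is known to lead to the breakdown of UNC119, a carrier of rod transducin. Its levels were 355, 303 and 294 in samd7-/- and 798, 805 and 608 in WT, a log2 fold change of −1.21 (SE 0.16). WT 3 was the lowest WT larva, at 608, and the highest samd7-/- larva stood at 355, a separation that the choice of the gene required. The summed rod markers and the summed red and green cone markers given above were also lower in samd7-/-, as were 7 of the 9 genes. The part of rods or cones in the klhl18 values was not tested.

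gpsm2, which encodes the LGN protein that links Gi subunits to the spindle and orients cell division, had the smallest difference of the 9. It stood at 590, 467 and 502 in samd7-/- and at 890, 1042 and 916 in WT, a log2 fold change of −0.87 (SE 0.14). The highest samd7-/- larva and the lowest WT larva were 0.59 apart on the log2 scale, the narrowest gap among the 9. Summed markers of dividing cells ranged from 24191 to 32111 in samd7-/- and from 21643 to 29489 in WT. These ranges overlap, and 0 of the 11 markers passed with limma, nor did any have an unadjusted p under 0.05. With 0.301% and 6.33% of all tested genes doing so, 0 of 11 is no result about dividing cells.

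ifi30 encodes the lysosomal thiol reductase known as GILT, which opens disulfide bonds of proteins taken up for antigen processing. It stood at 192, 169 and 181 in samd7-/- and at 594, 325 and 419 in WT, a log2 fold change of −1.26 (SE 0.23). The samd7-/- larvae were close together and the WT larvae spread wide, with WT 1 the highest. GILT is abundant in antigen-presenting cells, and summed macrophage and microglia markers ranged from 389 to 791 in samd7-/- and from 532 to 776 in WT. These ranges overlap too. Of 7 markers 0 passed with limma, and 0 had a p under 0.05 before adjustment. The shares over all tested genes were 0.301% and 6.33%, so nothing is read from 0 of 7. No marker of that list in the table was at 0 in all libraries.

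si:dkeyp-73d8.9 was the member with no reads at all in the mutants. It had 0, 0 and 0 reads in samd7-/- and 25, 25 and 20 reads in WT, which are normalized counts of 23.9, 27.8 and 18.3. Against a floor of 3 reads over the samd7-/- group, it was at least 23.6-fold lower in samd7-/- than in WT, a bound that covers counting error only. The fitted log2 value, −4.59, is no bound, since the pseudocount sets it. A second gene of the same clone name, si:dkeyp-73d8.6, chosen after its values were seen, showed the same pattern below the filter, with 0, 0 and 0 reads in samd7-/- and 19, 7 and 12 reads in WT. ccr9a, which encodes a chemokine receptor and starts between them in RefSeq's gene order, was detected in both genotypes, at 22.6, 3.03 and 22.5 in samd7-/- and 18.2, 40.0 and 11.0 in WT. Genes with a value of 0 in every larva of one genotype and at least 5 in every larva of the other numbered 4 in the whole table. Of these, 2 were these neighbours. The most abundant of the 4, ndufs8b, lies on another chromosome and had 0 reads in each samd7-/- larva and 412, 163 and 153 in WT. For the last, zgc:153522, with 12, 10 and 6 reads in WT, no chromosome was found. In RefSeq's gene table si:dkeyp-73d8.9 overlaps ccr9a and puf60a, klhl18 overlaps ccr9a, and pik3r2 overlaps the RNA gene LOC101882114. The kit does not mark strand, so reads from such overlaps cannot be assigned by strand. Whether these genes overlap in the annotation used for counting is not known.

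The 9 genes are a chosen part of the 143 tested genes of this chromosome whose genotypes did not overlap, so their places reflect that choice. They were spread over most of the samd7 chromosome. Positions are given as gene order in RefSeq's gene table (assembly GRCz12tu), counted in tested genes from samd7. On one side lay 8 of the 9: klhl18 at 47 genes, si:dkeyp-73d8.9 at 49, ifi30 at 145, pik3r2 at 146, tfa at 233, pcyt1aa at 297, zgc:153615 at 300 and ppm1la at 332. On the other side lay only gpsm2, at 81 genes. Because the genotype separation chose the 9, nothing about distance is read from their gaps. On the log2 scale the gap between the genotypes was 0.78 for klhl18, the nearest, and 0.59 for gpsm2, the third nearest. It was 0.76 for ifi30, 1.65 for its neighbour pik3r2 and 1.06 for tfa. For pcyt1aa it was 1.54, for zgc:153615 0.73 and for ppm1la, the farthest, 1.30. The gap of si:dkeyp-73d8.9, the second nearest, was 4.27, a value set by the pseudocount because the gene had no reads in samd7-/- and passed the filter through WT alone.

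**Figure D2:**
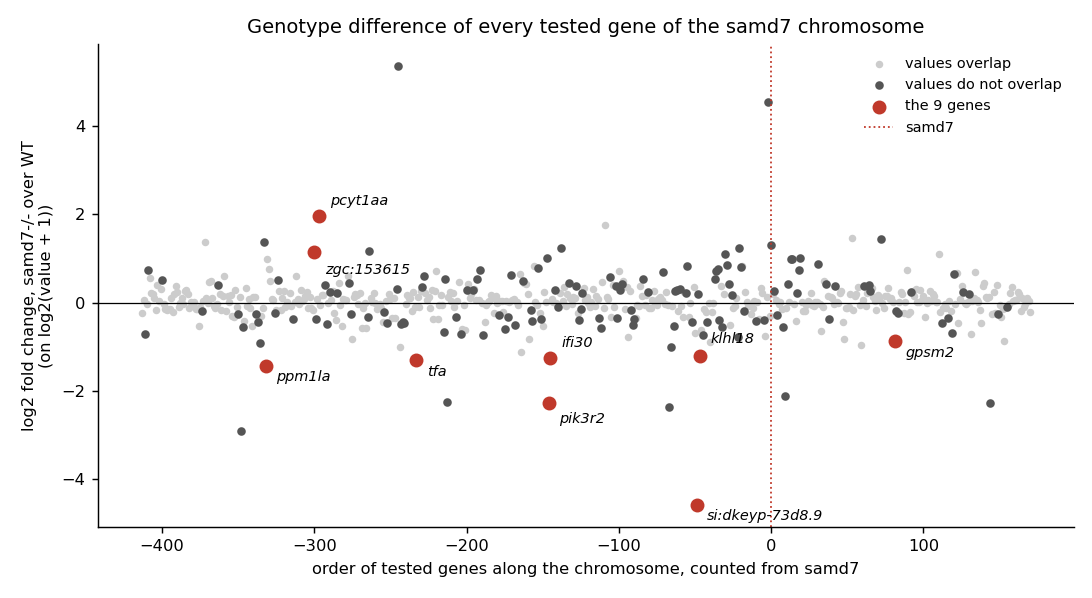
log2 fold change from log2(value + 1), samd7-/- over WT (y axis), for each of the 584 tested genes of the samd7 chromosome, placed by gene order from samd7 (x axis, number of tested genes). Red points are the 9 genes, dark points are other genes whose genotypes do not overlap and pale points are genes whose genotypes overlap. Most genes lie near 0 and the 9, chosen for their separation, lie away from it, from −4.59 to 1.97. The −4.59, of si:dkeyp-73d8.9, is set by the pseudocount.

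Many other genes of this chromosome also separated the genotypes, mostly by less. Of its 584 tested genes, 143 had values that did not overlap, 24.5%, with 72 higher and 71 lower in samd7-/-. Without the 9 genes and samd7 the count was 133 of 574, 23.2%, against 12.5% over the other chromosomes combined. Each of the other 24 chromosomes had a smaller share, at most 19.5%. At an unadjusted limma p under 0.05 there were 15.6% on the samd7 chromosome, 14.1% without the 9 genes and samd7, and 2.66% to 10.0% on each of the others, where 6.33% of all tested genes passed. Leaving out any 1 library makes separation easier everywhere: the share was then 31.5% to 39.0% on the samd7 chromosome and 20.2% to 25.7% over all tested genes. The samd7 chromosome kept the highest share of all chromosomes with any 1 library left out but samd7-/- 2, without which it had 31.5% and another chromosome 32.8%.

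**Figure D3:**
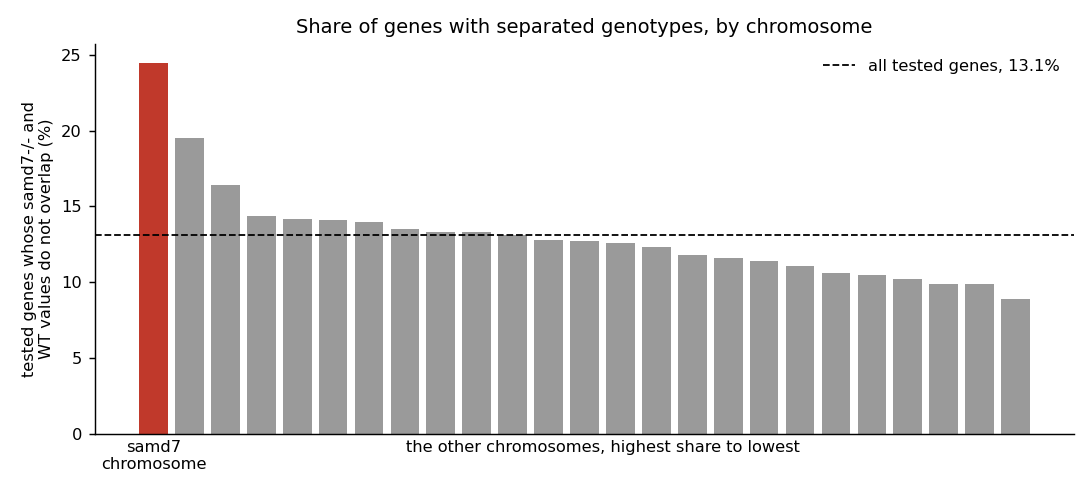
Percent of tested genes on each chromosome whose samd7-/- and WT values do not overlap (y axis), with the samd7 chromosome in red and the other 24 in grey in falling order. The samd7 chromosome stands at 24.5%, the next at 19.5%, and the dashed line marks the 13.1% of all tested genes.

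On each side the share was highest in the step beside samd7 and lower toward the end of the chromosome. Among the 50 tested genes next to samd7 on the side of klhl18 and ppm1la, 21 did not overlap, 42.0%, and 19 of 48 without klhl18 and si:dkeyp-73d8.9. In the following steps of 50 genes on that side the share was 34.0%, 32.0%, 30.0%, 26.0%, 26.0% and 22.0%, and among genes 351 to 400 it was 3 of 50. On the side of gpsm2 it was 28.0% in the first step, 16.0% in the second and the third, and 5.00% among the last 20 genes. The final 13 genes of the ppm1la side, too few for a firm share, stood at 15.4%. Each of the 9 genes adds to the share of its own step, since it was chosen for not overlapping. Without them the steps that hold a member stood at 39.6%, 29.2%, 24.5%, 22.9% and 20.4% on the ppm1la side, in order from samd7, and the step of gpsm2 stood at 14.3%, 7 of 49 genes, close to the 13.1% of all tested genes. With any 1 library left out, 22 to 27 of the 49 or 50 tested genes in the step that holds klhl18 did not overlap. The share over all tested genes was then also higher, at 20.2% to 25.7%.

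**Figure D4:**
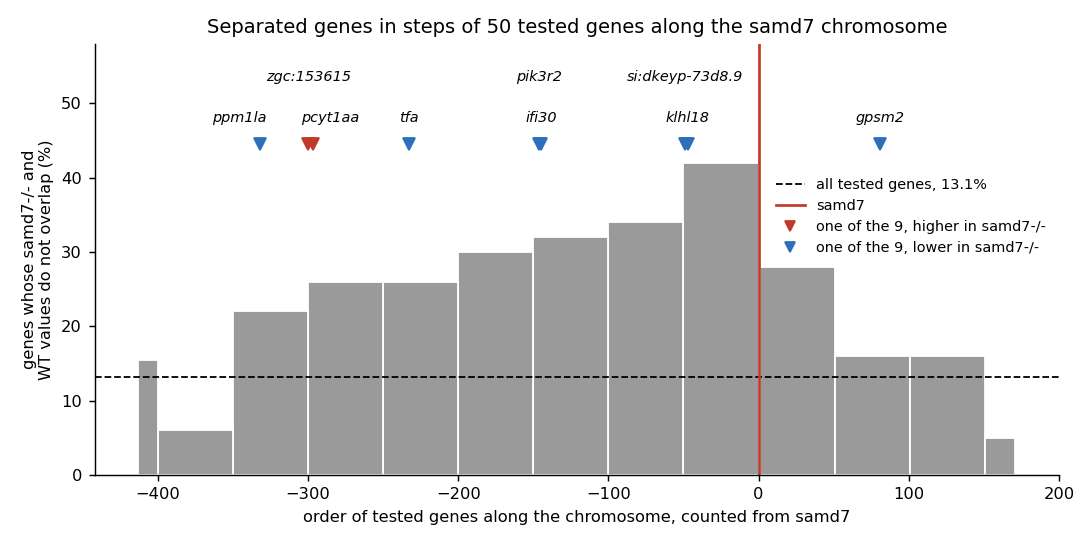
Percent of tested genes whose samd7-/- and WT values do not overlap (y axis) in steps of 50 tested genes along the samd7 chromosome, counted from samd7 at 0 (x axis); the outermost steps hold 13 and 20 genes. Triangles mark the places of the 9 genes, red where higher and blue where lower in samd7-/-. The dashed line marks the 13.1% of all tested genes. The tallest bar, at 42.0%, is beside samd7 on the ppm1la side, and the bar beside samd7 on the gpsm2 side is at 28.0%.

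Gaps as wide as those of the 9, which were chosen for their separation, were also found in other genes of this chromosome. Besides samd7 itself, 8 other tested genes of the chromosome had gaps at least as wide as that of gpsm2: amy2a, saga, pdca, cplx4c, apoda.2, rpph1, e2f5 and crtc1a. The gaps of amy2a at 2.12, saga at 2.06 and pdca at 1.78 were wider than that of every member but si:dkeyp-73d8.9. Of these saga (rod arrestin), pdca (phosducin) and cplx4c (a complexin) are photoreceptor or synapse genes and passed with limma. saga stood at 1474, 470 and 1025 in samd7-/- and 7793, 6151 and 6221 in WT (log2 fold change −2.90, SE 0.36, limma adjusted p = 0.0202), pdca was lower by a log2 fold change of −2.25 (limma adjusted p = 0.0155) and cplx4c by one of −2.27 (limma adjusted p = 0.0382). Only samd7, of these 4 genes, passed with any 1 library left out; saga lost its call without WT 1, WT 2, WT 3 or samd7-/- 3, pdca without WT 1, WT 2 or WT 3, and cplx4c without any 1 of the 6. With limma's robust moderation saga also missed the threshold (adjusted p = 0.0566), as did cplx4c with no filter (limma adjusted p = 0.0529) and with the replicate block (limma adjusted p = 0.0842). In amy2a and apoda.2 a single larva held most of the signal: amy2a stood at 2563, 27.3 and 66.5 in samd7-/- and 0.956, 4.44 and 5.50 in WT, and apoda.2, which lies 2 tested genes from samd7, at 5459, 83.9 and 165 in samd7-/- and 18.2, 8.89 and 30.3 in WT.

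The separation is a matter of degree at its edge. Just inside lay mbd3a, at 3201, 3224 and 3245 in samd7-/- and 3588, 3573 and 3246 in WT, and arhgap12a, at 2081, 1760 and 2182 in samd7-/- and 1651, 1577 and 1759 in WT. Just outside lay angptl4, at 2363, 1706 and 1920 in samd7-/- and 3400, 2854 and 2362 in WT, and ubxn7, at 860, 862 and 836 in samd7-/- and 918, 958 and 859 in WT.

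The nearest measured genes on either side of the 9 were examined next. They were taken by place alone and the 9 for their separation, so nothing is read from the contrast between them. Of 18 such places, 2 were held by members, since pik3r2 and ifi30 are next to each other, and the rest by 15 other genes, of which 13 were tested. The genotypes did not overlap in 4 of the 13, 30.8%, where the share was 24.5% over the chromosome and 13.1% over all tested genes, and 13 genes are too few for a firm share. With limma 0 of the 13 passed, where 0.301% of all tested genes did. These 4 were crtc1a, puf60a, prpf38b and selt1a. crtc1a, which encodes a coactivator of CREB and lies next to pik3r2, was higher at 366, 423 and 343 in samd7-/- against 179, 213 and 164 in WT, a log2 fold change of 1.02 (SE 0.17, limma adjusted p = 0.0863), while pik3r2 and ifi30 beside it were lower. The others had smaller values: puf60a had a log2 fold change of 0.20, prpf38b of −0.19 and selt1a of −0.38. The genotypes overlapped in the rest. On either side of pcyt1aa, dvl3a had a log2 fold change of 0.07 (SE 0.21) and ap2m1a of −0.05 (SE 0.12). Beside tfa, ubxn7 had one of −0.09 (SE 0.11) and eif4g1a of 0.14 (SE 0.21). mpv17l2 beside ifi30 had one of 0.09 (SE 0.18) and txndc12 beside zgc:153615 of −0.17 (SE 0.11). Larger values were found in otol1a beside ppm1la, at 0.998 (SE 0.77), and in bfsp2 beside klhl18, at −0.61 (SE 0.25). ccr9a beside si:dkeyp-73d8.9 stood at −0.69 (SE 0.80).

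**Figure D5:**
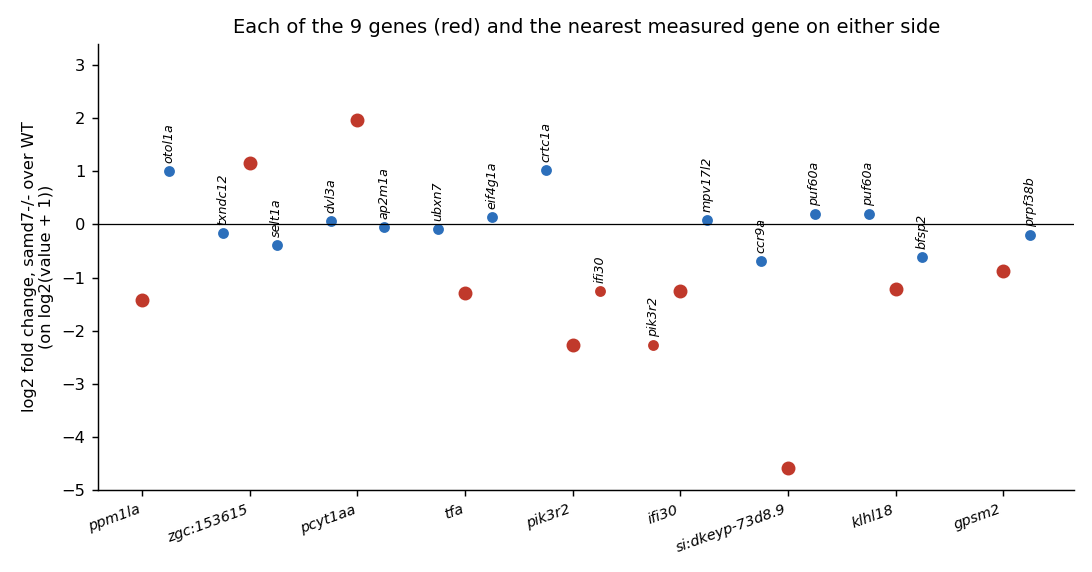
log2 fold change from log2(value + 1), samd7-/- over WT (y axis), for the 9 genes in chromosome order (large red points) and for the nearest gene of the table on either side (blue, or small red where it is itself one of the 9); neighbours too low to be tested are not drawn. Most blue points, taken by place alone, lie near 0. The red points, chosen for their separation, do not, so nothing is read from this contrast. Farther from 0 lie otol1a at 0.998, ccr9a at −0.69 and bfsp2 at −0.61, and crtc1a at 1.02 lies opposite in sign to pik3r2 at −2.28.

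The spread between larvae of 1 genotype also differed. si:dkeyp-73d8.9, with no reads in samd7-/-, has no spread there to compare. In 7 of the other 8 genes the SD of the log2 values was smaller among samd7-/- larvae than among WT larvae, the exception being gpsm2. The median SD of these 8 was 0.109 in samd7-/- and 0.255 in WT. Over all tested genes the SD was smaller in samd7-/- for 65.2%, with medians of 0.177 in samd7-/- and 0.255 in WT, so WT larvae were the more variable group in general. A gene with a small spread separates the genotypes more readily, so the choice of the 9 bears on this spread.

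Relatives and pathway partners of the members were counted in 7 lists, with the members left out. Of 127 tested genes 0 passed with limma, which is near the 0.301% of all tested genes and so is no result about the lists. An unadjusted p under 0.05 was found in 1, 0.787%, against 6.33% of all tested genes. edgeR called 0 and DESeq2 called 1, hexa, which encodes a lysosomal enzyme, where DESeq2 called 0.679% of all genes. Of the 127, 6.30% had genotypes that did not overlap, against 13.1% of all tested genes, and their median log2 fold change was 0.06, against 0.00 over all tested genes. The lists lie mostly on other chromosomes, with 10 of the 127 genes on that of samd7.

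Sister copies were looked for only by a symbol shared up to the last letter. Those found did not pass with limma or were too low to be tested. The limma threshold is not the criterion that chose the members, of which 6 of 9 passed it. pcyt1ab, the sister gene of pcyt1aa, stood at 489, 603 and 580 in samd7-/- and 470, 473 and 489 in WT, a log2 fold change of 0.22 (SE 0.14, limma adjusted p = 0.820). With a gap of −0.0011 on the log2 scale, it narrowly missed the separation that chose the members, in the direction of pcyt1aa. ppm1lb, the sister gene of ppm1la, was too low to be tested, at 9.83, 5.06 and 2.93 in samd7-/- and 0.956, 4.44 and 6.42 in WT. pik3r1, which encodes the more common regulatory subunit of the same kinase as pik3r2, averaged 5238 ± 525 in samd7-/- and 5004 ± 909 in WT (SD, n = 3 each), a log2 fold change of 0.08 (SE 0.15, limma adjusted p = 0.939).

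By list, 0 of 18 PP2C phosphatases, 0 of 14 genes of phosphatidylcholine and ethanolamine synthesis, 0 of 16 PI3-kinase and AKT genes and 0 of 14 genes of iron handling passed with limma. Likewise 0 of 26 CUL3 and KLHL genes, 0 of 19 genes of spindle orientation and Gi partners and 0 of 20 lysosomal and antigen processing genes passed, and with 0.301% of all tested genes called these counts stand near the background. Among the most abundant genes of these lists, log2 fold changes were near 0: ppm1nb at a log2 fold change of 0.18, the choline kinase chka at 0.07, the ferritin chain fth1a at −0.13, unc119b, a relative of the klhl18 target in mice, at −0.09, the G protein subunit gnao1b at 0.12 and the lysosomal protease ctsd at 0.02. The smallest limma adjusted p among these lists was 0.188.

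For each of the 9 the tested gene most like it across the 6 larvae was looked up. Likeness was the root mean square difference between log2 values, each gene centred on its own mean over 6 larvae, and it follows the genotype shift that chose the members. The nearest to gpsm2 was cfap20, a ciliary gene, at 0.074, the nearest to klhl18 was zgc:92162 at 0.15, the nearest to ppm1la was abcb9 at 0.17 and the nearest to tfa was clrn2 at 0.17. pde6h, a cone phosphodiesterase subunit, was nearest to ifi30 at 0.19, and aanat2, an enzyme of melatonin synthesis, nearest to pik3r2 at 0.29. esrrgb was nearest to pcyt1aa at 0.26, and zgc:77752 nearest to si:dkeyp-73d8.9, though at a wide 0.92. zgc:153615 had its nearest gene on the samd7 chromosome, crtc1a at 0.12, the one such case among the 9. That chromosome holds 4.88% of all tested genes, and nothing is read from this count.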

How the data were processed

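The submitters' processing notes name genome build danRer10 and, with no stated role, R 4.1.3, DESeq2 1.34.0, HTSeq 0.9.1, STAR 2.7.2b and Trim Galore 0.6.1. An annotation release was not given in the sources used here. Per the labels' protocols, 10 ng of RNA went into each SMARTer library. The authors deposited a normalized signal per gene and library, a read count divided by 1 factor per library: 100% of values were whole multiples, within 0.001, of the value of 1 read, so reads were recovered. The log2 fold changes and adjusted p-values the authors deposited were not used.

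Limma 3.58.1 (R 4.3.3, trend, 2-sided, Benjamini-Hochberg, threshold 0.05) was run on log2(value + 1) for genes that reached 10 or more in 3 or more libraries, and tested on simulated data. DESeq2 1.42.0 and edgeR 4.0.16 on recovered reads, other filters, pseudocounts and scalings, left-out libraries and the replicate block were alternatives. The members and lists were chosen with earlier results of these data known. Chromosome and gene order came from RefSeq (GRCz12tu, another build than that of the files, so no coordinates are given), matching 12660 genes by symbol and 1823 by synonym, with 298 not placed. List members were matched the same way.

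Named were samd7, the 9 members, those of their nearest table neighbours that were tested, and genes at the edge of the separation. Also named were genes of the chromosome that passed, list genes that passed or else the most abundant, sister copies, and the most alike gene. Other genes were chosen after their values were seen. Same-numbered larvae are not paired by the labels.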

Additional observations from a re-analysis of the deposited data

How the results depend on the processing

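No fold change of the 9 genes changed sign in any of the 140 refits in which one could be fitted, and 136 moved by less than 1 SD between larvae; since the genotypes do not overlap in these genes, leaving out 1 larva could not turn a sign. The other 4 belong to si:dkeyp-73d8.9, which has no mutant reads: its log2 fold change was −5.56 with a pseudocount of 0.5, −1.73 with 10, −7.00 with DESeq2 and −7.57 with edgeR. It could not be fitted with a minimum of 50 or with a WT library left out, because the filter then removes it. Of all genes, 36 passed (10 on the samd7 chromosome), 6 to 27 (2 to 5) with 1 library left out and 90 (24) with DESeq2. Of the 10, 6 are members, chosen for this same separation, and another is samd7. Without the members and samd7, 3 of 574 tested genes of the chromosome passed, against 26 of 11241 on the other chromosomes. The 24 called by DESeq2, of 653 on the chromosome, include all 9 members, where DESeq2 called 0.679% of all genes. The members were chosen for this same separation, so their calls are no result about them. The cause of the DESeq2 difference was not tested. DESeq2 also called 1 of the relatives. The replicate block gave 33 (7), and the correlation between the deviations of same-numbered larvae was 0.0286, 0.183 and −0.0024, so the numbers were not taken as pairs. With 1 library left out the non-overlapping genes of the samd7 chromosome numbered 182 to 226 in place of 143, as fewer larvae have to separate; with other filters and scalings they numbered 126 to 153. The counts in the step next to samd7 and over the relatives were added after seeing the data. Depth limits si:dkeyp-73d8.9 most, with 70 reads in WT.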
